A study of Mus musculus with 18 samples.

Results

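The mouse miRNAs numbered 6896 to 7094 were followed in small-RNA sequencing of cerebellum and hippocampus. An entry was taken when its name lay in that number range, with any letter or arm suffix, and when its raw reads summed to at least 20 over the 18 libraries, with the wild-type cerebellum libraries counted once. Since summed reads chose the strands, their overall level is given as a description. The rule kept 195 of the 403 entries in the range, among 1841 mature miRNAs listed in all. Of the 208 entries that were not kept, 159 had a read and 49 were at 0. Each entry is 1 strand of a hairpin, the 5p or the 3p arm, and 129 of the 195 strands were 3p and 66 were 5p. The summed reads of the 5 strands just inside the minimum (miR-6918-5p, miR-6942-5p, miR-6967-5p, miR-6995-3p and miR-7008-5p) were 20 each. Just outside it, miR-6938-5p, miR-6966-5p, miR-7028-3p and miR-7042-5p had 19 and miR-6914-5p had 18.

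A mirtron is a short intron that folds into a hairpin once it has been spliced and debranched, so that it reaches Dicer without the cut by Drosha that releases most miRNA precursors. In a tailed mirtron only 1 end of the hairpin is made by splicing, and the rest of the intron is trimmed away. Splicing leaves its marks on such strands, because introns begin with GU, end with AG and carry a run of pyrimidines just before that AG. The level of a mirtron strand is therefore tied to transcription and splicing of its host gene as well as to its stability in Argonaute.

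All mice were 1-month-old males of the C57BL/6J strain. The 6 groups, with 3 libraries each from separate biological replicates, were wild-type cerebellum, CyrKO cerebellum, Cdr1as671 cerebellum, CyrKO;Cdr1as671 cerebellum, wild-type hippocampus and CyrKO hippocampus. CyrKO mice lack the long non-coding RNA Cyrano, which directs degradation of miR-7. Cdr1as671 mice carry an 18-nt deletion at the site where miR-671 pairs with Cdr1as, a circular RNA, and the double mutant carries both lesions. Library totals ran from 8591172 to 15305829 reads on miRNAs, so that 1 read was worth 0.0653 to 0.116 CPM (reads per 1000000 miRNA reads of that library). RNA integrity numbers ran from 8.5 to 9.5. The neuronal miRNAs miR-124-3p, miR-9-5p and miR-128-3p together held 242646 to 367613 CPM in every library. The erythroid miRNAs miR-451a, miR-144-3p and miR-144-5p summed to 5405 to 32949 CPM in 10 of the 12 cerebellum libraries, to 783 and 603 CPM in Cdr1as671 libraries 1 and 2, and to 2583 to 3574 CPM in hippocampus.

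The hairpins in which the measured differences were large or ran against the usual arm are shown first, as RefSeq gives them on GRCm38.p6, 5′ to 3′, with the annotated mature strands in capitals. Introns are those of GENCODE M21 on the same build. miR-7080 fills a 67-nt intron of Cpne7, a copine that binds membranes with calcium, at chr8:123130106-123130172 on the plus strand. miR-6944 fills a 96-nt intron of Dbn1, which encodes the spine actin-binding protein drebrin, at chr13:55477681-55477776 on the minus strand. miR-7066 lies at the 3′ end of a 1420-nt intron of Ncan, the gene of the matrix proteoglycan neurocan, at chr8:70102524-70102586 on the minus strand. miR-6934 lies at the 3′ end of a 1006-nt intron of Tbc1d16, a Rab GTPase-activating protein, at chr11:119154076-119154137 on the minus strand.
miR-7080 hairpin: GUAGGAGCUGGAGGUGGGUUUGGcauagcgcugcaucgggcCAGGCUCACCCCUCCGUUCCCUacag
miR-6944 hairpin: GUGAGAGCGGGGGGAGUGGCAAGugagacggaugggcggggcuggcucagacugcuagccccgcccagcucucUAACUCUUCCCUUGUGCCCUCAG
miR-7066 hairpin: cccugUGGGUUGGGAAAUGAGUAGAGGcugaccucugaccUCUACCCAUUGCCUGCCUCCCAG
miR-6934 hairpin: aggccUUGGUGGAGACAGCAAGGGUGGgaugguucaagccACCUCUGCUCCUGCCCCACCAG
The 5p strand of miR-7080 starts at the first base of its intron and its 3p strand ends 4 nt before the last, whereas miR-6944-3p and miR-7066-3p end on the last intron base.

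Nearly all of the hairpins sat at splice sites. RefSeq gave 131 hairpin loci for 130 of the 148 hairpins, since miR-6967 has a locus in Kifc1 and another in Kifc5b, whose reads cannot be told apart. At a tolerance of 10 nt, 9 loci spanned a whole intron (67 to 96 nt long) and 120 touched 1 end of an intron, 117 of them the 3′ end and 3 the 5′ end. Together these were 129 of 131 loci (98.5%), against 36 of 437 loci (8.24%) of the other miRNAs with at least 20 reads. The exceptions were miR-7036b, inside a longer intron of Add1, and miR-7025, in an exon of Pdgfra. The 129 loci lay in 128 host genes, and only Ankrd52 held 2 hairpins, miR-6914 and miR-6915. Where it could be placed, the 3p strand ended on the last base of the intron in 87 of 109 cases and within 2 nt of it in 105.

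**Figure D1:**
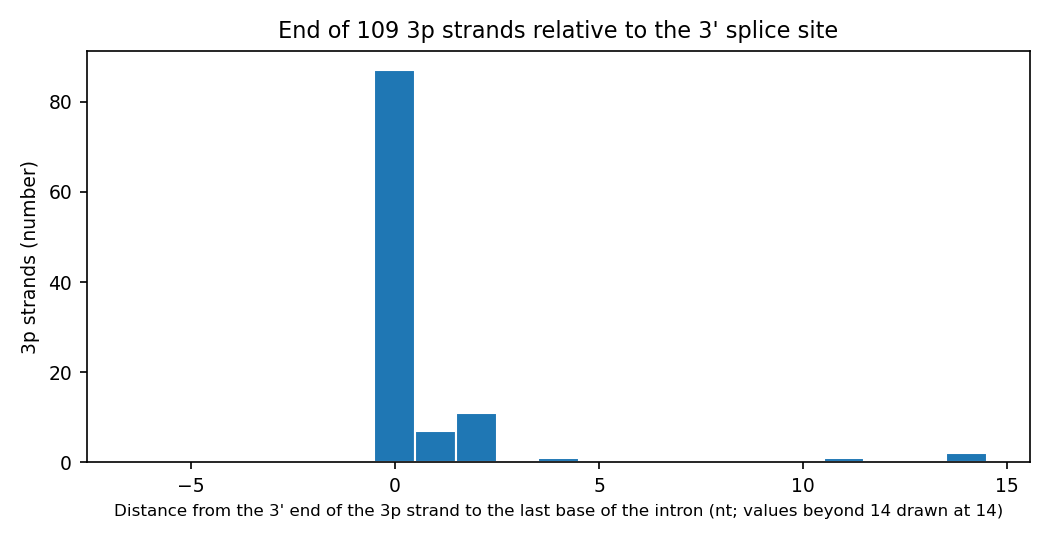
Distance in nt from the 3′ end of each of 109 annotated 3p strands to the last base of its intron; bars count strands, and values beyond 14 nt are drawn at 14. The bar at 0 holds 87 strands, and 105 lie within 2 nt of the splice site.

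The 3p strands carried the base composition of intron 3′ ends, and the 5p strands were rich in G. Over the 115 3p strands with a RefSeq sequence, C and U made up 72.2% ± 7.88 of the bases (SD over strands), against 55.0% ± 13.0 in 342 other 3p strands with at least 20 reads. Of those 115, 92 ended in AG (80.0%), against 39 of the 342 others (11.4%). The 61 5p strands held 41.4% ± 8.92 G, against 29.4% ± 11.0 in 329 other 5p strands. These are properties of the annotated sequences and not of the reads, and they carry no test.

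The strands on which the results turn have the mature sequences below, in the order of the results, with the seed (bases 2 to 8) in capitals.
miR-7080-3p: cAGGCUCAccccuccguucccu
miR-7080-5p: gUAGGAGCuggagguggguuugg
miR-6944-3p: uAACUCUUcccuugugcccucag
miR-7044-3p: aUGCAGCCccgacccucacag
miR-7066-3p: uCUACCCAuugccugccucccag
miR-7066-5p: uGGGUUGGgaaaugaguagagg
miR-6977-3p: aAGGCGUUgccugacccugacc
miR-6945-3p: uCUGAGCUcugcccuucccau
miR-7070-3p: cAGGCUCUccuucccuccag
miR-6934-5p: uUGGUGGAgacagcaagggugg
miR-7046-3p: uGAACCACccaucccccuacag
miR-6899-3p: uUGUCCUUcugugucuucugcag
miR-6958-3p: uCAGCUGCcucuugccaucacag
miR-7052-3p: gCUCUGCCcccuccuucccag
In contrast to miRNA families that are defined by a common seed, the 176 strands with a sequence had 168 different seeds, and 15 strands shared theirs with another of the 195. The commonest was held by 3 strands from unrelated hosts (Hspg2, Pik3cd and Cherp), shown here because they differ from each other after the seed.
miR-7018-3p: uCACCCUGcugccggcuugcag
miR-7023-3p: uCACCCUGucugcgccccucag
miR-7068-3p: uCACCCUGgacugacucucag
Seeds of 12 strands were also found in miRNAs outside the number range. miR-7002-3p, which had 27 reads in all, has the seed of the neuronal miR-218-5p, and miR-6932-3p and miR-7039-3p share theirs with the passenger strands miR-26a-2-3p and miR-26b-3p. No pair of mature sequences was similar enough, at 1 mismatch and 2 nt of length, for reads to be split between them.

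Together the 195 strands were a trace of the small-RNA pool. They took 1566 to 4189 reads per library, 0.0162% to 0.0344% of all miRNA reads, and the highest of them ranked 386 among all miRNAs by mean CPM. Their summed reads ran from 20 to 3437 with a median of 73, and 112 strands had fewer than 100. A read was present in all 18 libraries for 96 strands, 54 had a mean of at least 1 CPM over the 6 groups, and 4 had at least 10 CPM. The 12 highest, miR-7047-3p, miR-6944-3p, miR-7080-3p, miR-7044-3p, miR-7080-5p, miR-6958-3p, miR-7052-3p, miR-7046-3p, miR-6975-3p, miR-7075-3p, miR-6946-3p and miR-6988-3p, took 44.3% of the reads. At this depth, strands near the minimum have about 1 read per library and differences in them are not detectable.

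**Figure D2:**
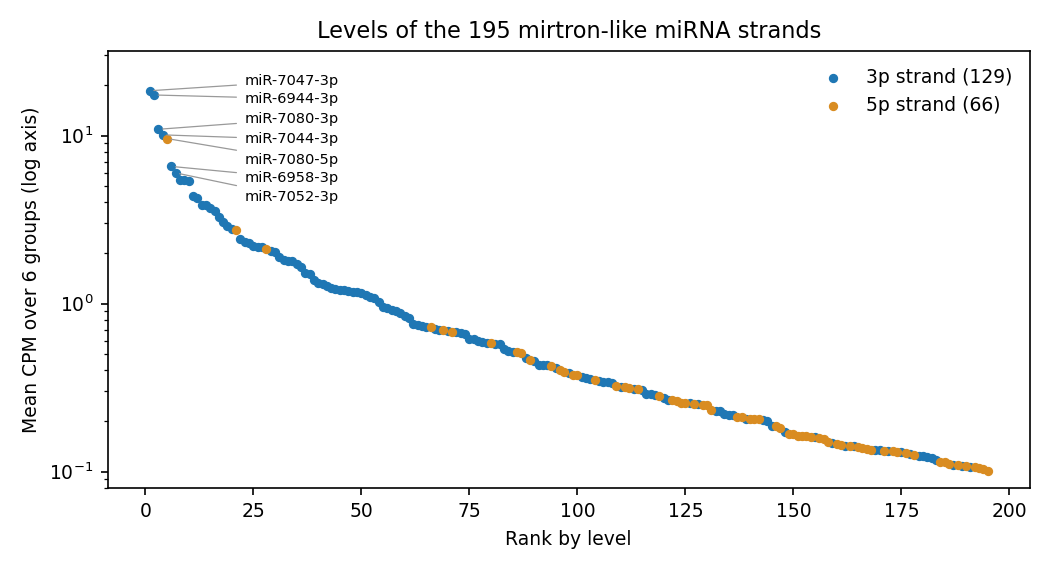
Mean CPM over the 6 groups (log axis) of the 195 strands against their rank, with 3p strands in blue and 5p strands in orange. The 4 highest strands are above 10 CPM, all 3p, and most 5p strands lie in the right-hand part of the plot, under 1 CPM.

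miR-7047-3p had the highest level. Its CPM values were 16.8, 18.8 and 21.9 in wild-type cerebellum, 23.6, 10.6 and 20.3 in CyrKO cerebellum, 21.3, 22.2 and 15 in Cdr1as671 cerebellum and 11.2, 16.8 and 15 in the double mutant. In hippocampus they were 21.1, 18.3 and 25.0 in wild type and 11.8, 22 and 21.2 in CyrKO. All 3 double-mutant libraries were below the wild-type libraries of both tissues, with the highest of them level with the lowest wild-type cerebellum library after rounding, and the other groups overlapped. Double-mutant and wild-type cerebellum did not overlap in 26.6% of all tested miRNAs. miR-6958-3p, which comes from a whole intron of Dennd6b, a DENN-domain gene, kept to a narrow band, with group means between 5.74 ± 1.44 CPM (double mutant, SD, n = 3) and 7.04 ± 0.98 CPM (CyrKO hippocampus, SD, n = 3).

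The 3p arm carried most reads. It had 87.1% of the reads of the 195 strands, and it had more reads than the 5p arm in 124 of 148 hairpins and fewer in 24. The median 3p share per hairpin was 89.5%, compared with 45.7% over 397 hairpins outside the number range, of which 193 had more 3p reads. Established mirtrons outside the range went both ways. The 3p arm led in miR-702 (18474 reads of 3p, 77 of 5p) and miR-877 (16502 and 8712). The 5p arm led in miR-1224 (3662 of 3p, 8218 of 5p) and miR-1981 (2112 and 2442). In 47 hairpins both arms passed the minimum of 20 reads, in 82 only the 3p arm did and in 19 only the 5p arm did. Among the 9 whole-intron mirtrons the 3p share lay between 77.8% and 100% in all but miR-7080, where it was 52.9% (1795 reads of 5p and 2012 of 3p). That balance was alike in the 6 hippocampus libraries, where the 5p strand took 42.7%, 45.7% and 48.9% of miR-7080 reads in wild type and 50.7%, 45.9% and 47.2% in CyrKO. Marked 5p hairpins were miR-6934, with 531 reads of 5p and 85 of 3p, and miR-6897, with 402 and 2. Arms are 2 products of 1 hairpin, so the members of such pairs do not count as independent observations.

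The tissues were compared within each genotype, wild type and CyrKO, whose libraries are separate. By CPM the summed level was higher in hippocampus, at 326 ± 16 CPM in wild type and 317 ± 6.16 CPM in CyrKO (SD, n = 3), than in cerebellum, at 184 ± 6.58 and 186 ± 21.6 CPM. Most of that difference lay in 5 strands chosen after their values were seen, miR-7080-3p, miR-7080-5p, miR-6944-3p, miR-6982-3p and miR-7044-3p, which made up 83.2% of it in wild type and 88.3% in CyrKO. The other 190 strands summed to 172 CPM in wild-type cerebellum and 196 CPM in wild-type hippocampus. Scaling matters here, because TMM, which sets libraries level on the bulk of miRNAs, places log2 differences between the tissues 0.55 (wild type) and 0.58 (CyrKO) lower than library totals do, as the median over all tested miRNAs. The TMM-scaled sums were 209 CPM in wild-type cerebellum and 250 CPM in wild-type hippocampus.

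Both strands of miR-7080 were present in hippocampus and nearly absent from cerebellum. No other tissue was sequenced, so their levels elsewhere are not known from these data. miR-7080-3p stood at 34.5, 30.5 and 31.3 CPM in wild-type hippocampus and 33.1, 32.3 and 32.9 CPM in CyrKO hippocampus. In cerebellum it had 1, 3 and 0 reads in wild type, 2, 2 and 1 in CyrKO, 0, 0 and 3 in Cdr1as671 and 3, 3 and 1 in the double mutant. All hippocampus libraries were thus above all cerebellum libraries, by 220-fold when reads were pooled over 12 cerebellum and 6 hippocampus libraries (95% interval 140 to 366, for counting error only). miR-7080-5p stood at 25.7, 25.7 and 29.9 CPM in wild-type hippocampus and 34, 27.4 and 29.4 CPM in CyrKO hippocampus. It had no read in the 3 wild-type cerebellum libraries, at least 303-fold lower against a floor of 3 reads over that group, and 7 reads in all 12 cerebellum libraries. The fitted log2 difference of miR-7080-3p was 7.41 (SE 0.30, edgeR adjusted p = 2.92e-12) in wild type and 7.23 (SE 0.29, adjusted p = 2.12e-12) in CyrKO. As this miRNA was singled out from earlier results of these libraries, its p is a description and supports nothing further. These are bulk tissues, in which fewer cells of a type and less RNA per cell cannot be told apart.

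Next came miR-6982-3p and miR-6944-3p. miR-6982-3p had 9.78, 11.6 and 13.2 CPM in wild-type and 9.91, 9.41 and 11.5 CPM in CyrKO hippocampus, and between 0.0947 and 0.687 CPM in the 12 cerebellum libraries. The pooled ratio was 31.8 (95% interval 23.4 to 44.2, for counting error only), with no overlap. The drebrin-intron strand miR-6944-3p had 37.9, 42.1 and 45.8 CPM in wild-type and 43.3, 38.7 and 41.6 CPM in CyrKO hippocampus. Its cerebellum values lay between 4.44 and 7.02 CPM in all 12 libraries, far below hippocampus. The log2 differences of miR-6982-3p were 4.42 (SE 0.30, adjusted p = 1.51e-09) in wild type and 4.23 (SE 0.30, adjusted p = 2.30e-09) in CyrKO. This strand passed the filter on low counts through hippocampus libraries only, so its p-values are descriptions. For miR-6944-3p the fitted log2 difference was 2.48 (SE 0.14, adjusted p = 2.44e-10) in wild type and 2.45 (SE 0.14, adjusted p = 2.61e-10) in CyrKO.

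Higher in hippocampus at lower levels or by less were 6 further strands. Both strands of miR-7066, from neurocan, were higher in hippocampus. miR-7066-3p had 3.38, 3.48 and 4.42 CPM in wild-type hippocampus against 0.71, 0.246 and 0.498 in wild-type cerebellum, and 2.23, 2.38 and 2.51 against 0.491, 0.849 and 0.714 in CyrKO. Its log2 difference was 2.40 (SE 0.32, adjusted p = 5.45e-06) in wild type and 1.16 (SE 0.31, adjusted p = 0.00318) in CyrKO, and the difference between these was not past the threshold (log2 −1.24, SE 0.48, adjusted p = 0.942). miR-7066-5p had 1.75, 1.43 and 1.83 CPM against 0.533, 0.246 and 0 in wild type and 0.968, 2.04 and 1.73 against 0.393, 0.131 and 0.179 in CyrKO. It rose by 2.05 (SE 0.57, adjusted p = 0.00432) and 2.18 (SE 0.57, adjusted p = 0.00313). With 0 to 6 reads per cerebellum library, its ratio is loosely set. Both miR-7066 strands passed the filter on low counts through hippocampus libraries only, so their p-values are descriptions.

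In the other 4 hairpins 1 strand was called. miR-6977-3p, from an intron of the receptor phosphatase gene Ptprs, had 3.03, 1.64 and 2.70 CPM against 0.444, 0.737 and 0.697 in wild type, and 2.76, 2.72 and 3.12 against 0.393, 0.523 and 0.179 in CyrKO. It rose by 1.40 (SE 0.35, adjusted p = 0.00229) and 2.31 (SE 0.37, adjusted p = 3.31e-05). miR-6945-3p, from the PDZ-LIM gene Pdlim7, had 1.51, 2.05 and 1.83 CPM against 0.266, 0.164 and 0.199 in wild type and 2.01, 1.36 and 0.953 against 0.295, 0.523 and 0.625 in CyrKO. It rose by 2.51 (SE 0.45, adjusted p = 0.000111) in wild type and 0.99 (SE 0.37) in CyrKO, where the groups lay closer. Both miR-6977-3p and miR-6945-3p passed the filter on low counts through hippocampus libraries only, so their p-values are descriptions. miR-7044-3p, from the Ras exchange factor gene Rasgef1a, had 13.5, 17.6 and 19.8 CPM against 5.5, 6.63 and 7.27 in wild type and 15.2, 13.4 and 14.1 against 8.54, 5.16 and 7.14 in CyrKO. It rose by 0.85 (SE 0.18, adjusted p = 0.000684) and 0.47 (SE 0.18). miR-7070-3p had 3.26, 3.07 and 4.75 CPM against 0.976, 1.64 and 1.79 in wild type and 2.68, 5.10 and 5.02 against 1.47, 1.18 and 1.16 in CyrKO. It rose by 0.78 (SE 0.32) and 1.15 (SE 0.31, adjusted p = 0.00384). For these 5 hairpins the 3 libraries of 1 tissue did not overlap those of the other in either genotype, as was the case for 72% (wild type) and 77.3% (CyrKO) of all tested miRNAs and for 33 and 30 of the 68 tested strands. Of these rises, 3 were lost in 1 genotype under an alternative. The adjusted p of miR-7070-3p in wild type was 0.0399, and it was 0.119 without cerebellum library 1 and 0.135 without hippocampus library 3, and 0.0894 by DESeq2. That of miR-6945-3p in CyrKO was 0.0251, and 0.119 without cerebellum library 1 and 0.215 without hippocampus library 1, and 0.128 by DESeq2. That of miR-7044-3p in CyrKO was 0.0287, and 0.123 and 0.0516 without cerebellum library 2 or 3 and 0.0979 and 0.0829 without hippocampus library 1 or 3, and 0.129 among miRNAs with a mean of at least 10 CPM.

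**Figure D3:**
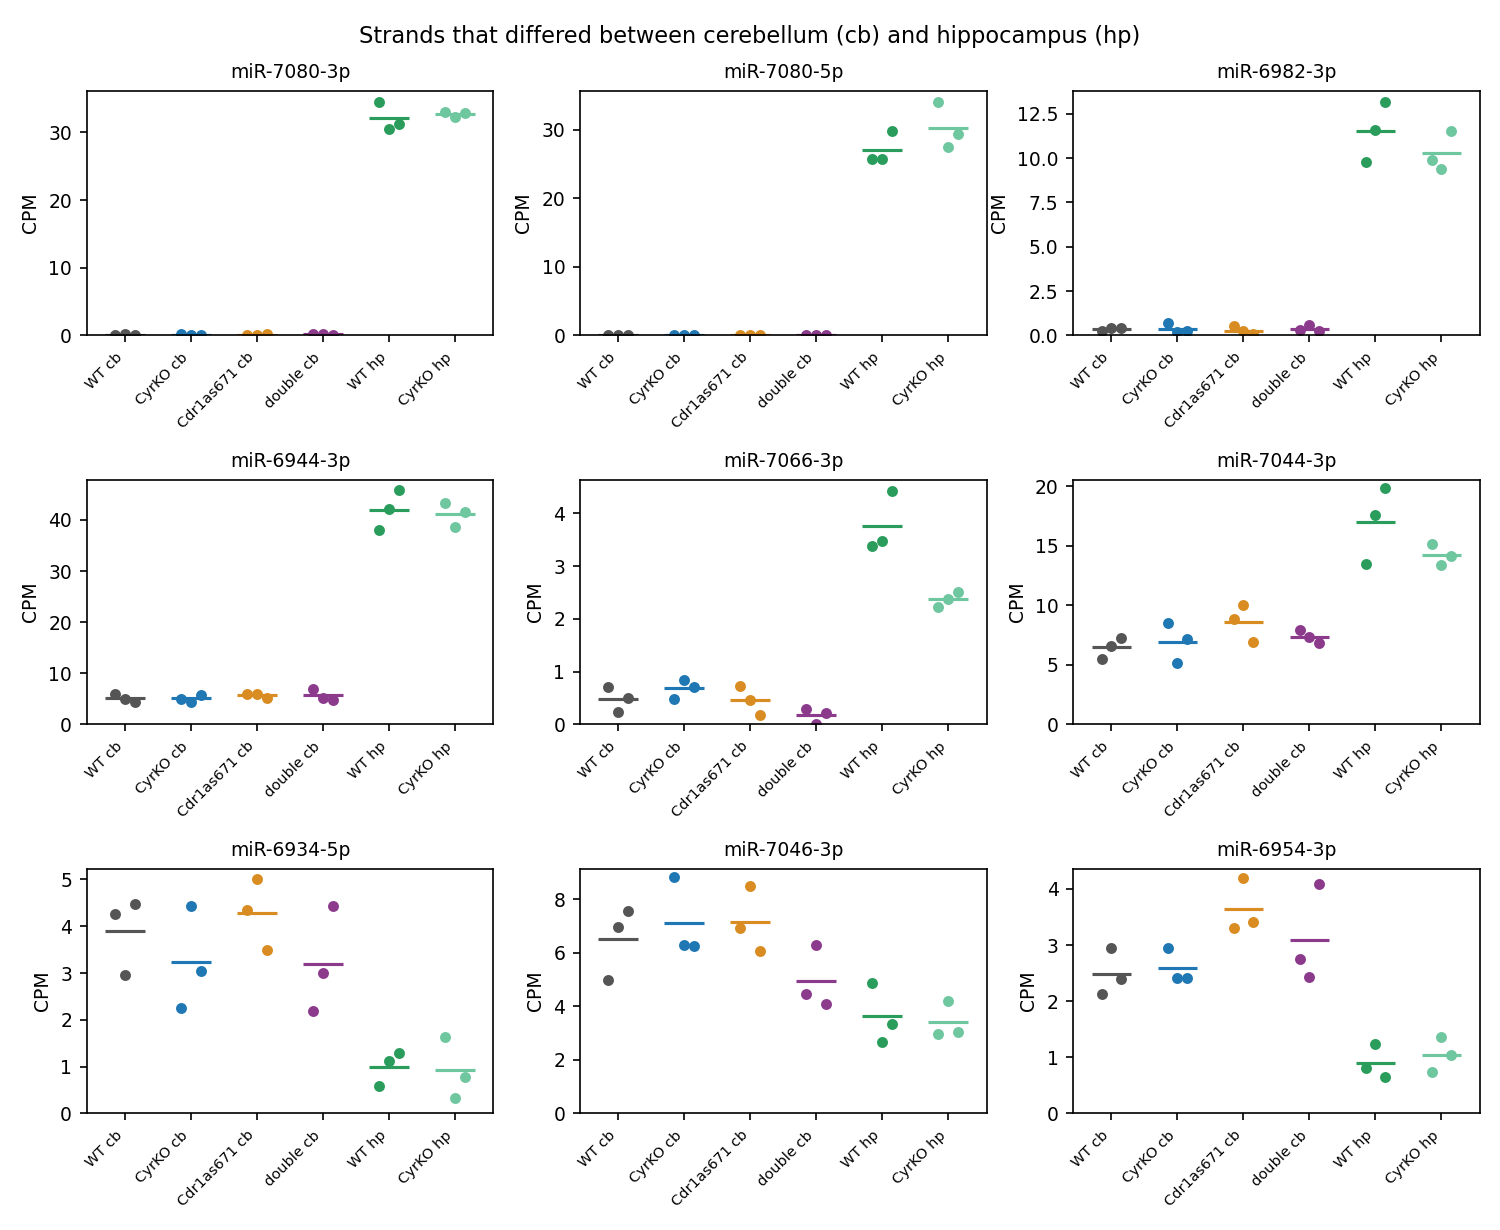
CPM of 9 strands in each of the 18 libraries, by group (cb, cerebellum; hp, hippocampus; double, CyrKO;Cdr1as671), with points for libraries and lines for group means. In the upper 6 panels the hippocampus libraries lie above all cerebellum libraries, and in the lower 3 panels those of wild type and CyrKO lie below the cerebellum libraries of their genotype.

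Fewer strands were lower in hippocampus under every scaling. The 5p-dominant miR-6934-5p had 0.582, 1.13 and 1.29 CPM in wild-type hippocampus against 4.26, 2.95 and 4.48 in wild-type cerebellum. In CyrKO it had 1.64, 0.34 and 0.779 against 2.26, 4.44 and 3.04, again with no overlap. On the log2 scale it fell by 2.47 (SE 0.40, adjusted p = 4.35e-05) in wild type and by 2.32 (SE 0.39, adjusted p = 6.03e-05) in CyrKO. miR-6954-3p had 0.815, 1.23 and 0.647 CPM in wild-type hippocampus against 2.13, 2.95 and 2.39 in cerebellum, and in CyrKO 0.745, 1.36 and 1.04 against 2.95, 2.42 and 2.41. It fell by 2.01 (SE 0.30, adjusted p = 1.69e-05) and 1.91 (SE 0.28, adjusted p = 1.30e-05). miR-7046-3p, from the Rab acceptor gene Rabac1, had 4.89, 2.66 and 3.34 CPM against 4.97, 6.96 and 7.56 in wild type, where the groups all but touched. In CyrKO, at 2.98, 4.20 and 3.03 CPM against 8.84, 6.27 and 6.25, they lay further apart. It fell by 1.39 (SE 0.24, adjusted p = 9.02e-05) and 1.65 (SE 0.24, adjusted p = 1.20e-05). miR-6899-3p, from the transcription factor gene Klf7, had 1.28, 1.43 and 0.755 CPM against 2.40, 2.38 and 2.09 in wild type, and 1.12, 0.907 and 1.04 against 1.47, 2.42 and 2.14 in CyrKO. It fell by 1.53 (SE 0.28, adjusted p = 0.000148) and 1.56 (SE 0.28, adjusted p = 0.000109), and the tissues did not overlap for any of these 4 strands, as for most miRNAs tested (72% and 77.3%).

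Counted over the whole set, tissue calls were no more common here than among miRNAs at large. Of the 68 strands that passed the filter on low counts, 31 differed between the wild-type tissues (45.6%), where 70% of all 746 tested miRNAs did. Of these, 11 were higher in hippocampus (all tested miRNAs, 37.5%) and 20 lower (32.4%). In CyrKO 38 differed (all tested miRNAs, 72.1%), 13 higher (38.9%) and 25 lower (33.2%). With library totals the split turned to 23 higher and 6 lower in wild type and 21 higher and 8 lower in CyrKO. The median log2 difference of the 68 went from −0.37 to 0.18 in wild type and from −0.40 to 0.17 in CyrKO, against 0.03 to 0.58 and 0.10 to 0.68 over all tested miRNAs. Called in 1 direction under TMM, RLE (the size factors of DESeq2) and library totals alike were 11 higher (all tested miRNAs, 36.2%) and 6 lower (16.9%) in wild type, and 13 higher (36.7%) and 8 lower (16.9%) in CyrKO. The 14 strands described above are those so called in both genotypes, 10 higher (32.8% of all tested) and 4 lower (14.7%), a set put together after the data were seen. The other 127 strands did not pass the filter. Of the 68, 4 passed it through cerebellum libraries only and 19 through hippocampus libraries only. These include 7 of the 10 higher strands, which had to be higher there to be tested, so the count of higher strands supports nothing by itself.

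The direction of the tissue difference was shared by the 2 genotypes. In separate fits of the 6 wild-type and the 6 CyrKO libraries, which have no library in common, 55 strands were tested in both and 52 had the same sign (94.5%), as had 93.6% of all 706 miRNAs tested in both. No strand was called in opposite directions.

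**Figure D4:**
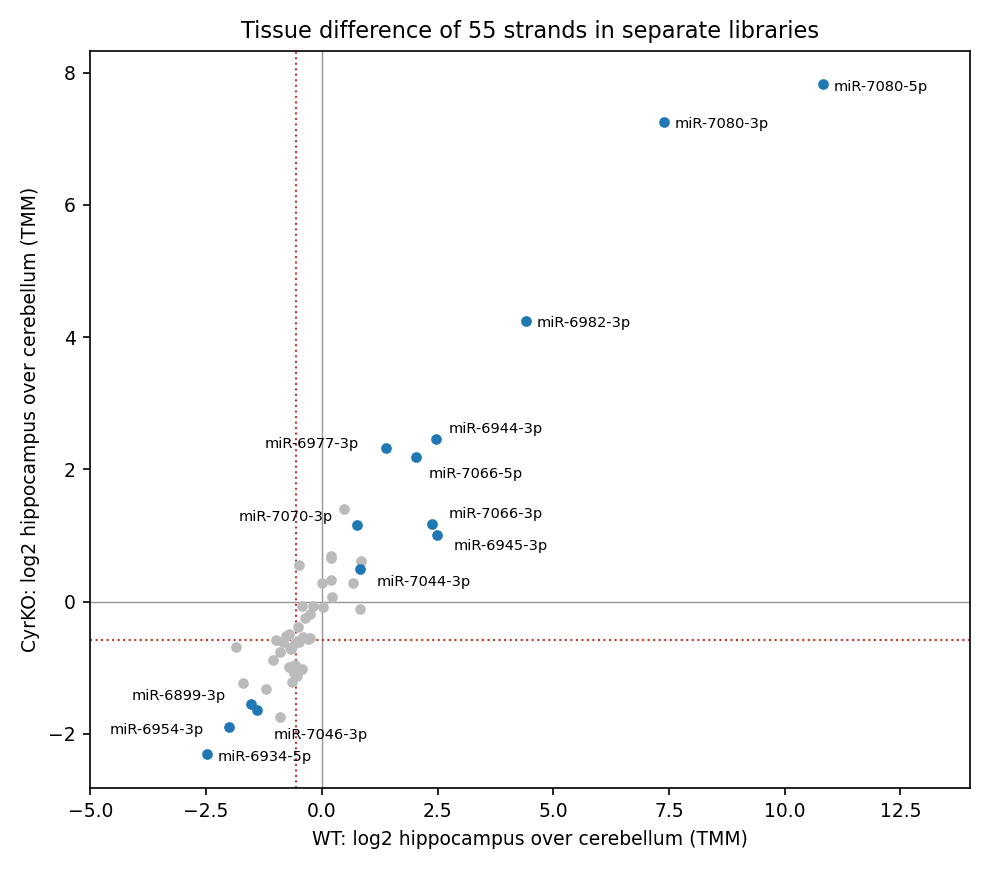
Log2 ratio of hippocampus over cerebellum (TMM) in wild type and in CyrKO for 55 strands, each from a fit of 6 libraries; blue points are the 14 strands called under every scaling in both genotypes, and red dotted lines mark where 0 lies with library totals. The points run along the diagonal from miR-6934-5p to miR-7080-5p, whose wild-type value depends on the prior count because its cerebellum libraries are at 0.

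Beyond these 14, 29 strands were called in at least 1 genotype. Lower under TMM but not under every scaling were 14 in wild type, with log2 differences of −1.54 to −0.50, and 17 in CyrKO, with −1.53 to −0.39. Of the 29, 25 were lower in hippocampus by TMM and 4 were higher: miR-6962-3p in wild type (log2 1.5, SE 0.53), and miR-6926-3p (1.38, SE 0.37), miR-6970-3p (0.65, SE 0.20) and miR-7093-3p (0.68, SE 0.26) in CyrKO. Over all tested miRNAs, 32.4% were lower and 37.5% higher in wild type, and 33.2% and 38.9% in CyrKO. The 29 are what was left once the 14 were set aside, and TMM places tissue differences lower than library totals do. Their split by direction therefore supports nothing by itself. miR-6958-3p is an example of a call that depended on the scaling, since it was lower by 0.50 (SE 0.15) in wild type by TMM while its CPM was 6.55 ± 0.66 in cerebellum and 6.74 ± 0.44 in hippocampus (SD, n = 3). Lower under every scaling in 1 genotype were miR-6989-3p (log2 −1.84, SE 0.37) and miR-7031-3p (−1.70, SE 0.38) in wild type, and miR-6971-3p (−1.13, SE 0.21), miR-7004-3p (−1.75, SE 0.35), miR-7048-3p (−1.32, SE 0.32) and miR-7075-3p (−1.08, SE 0.18) in CyrKO. Of the strands named here, miR-7031-3p and miR-7048-3p passed the filter on low counts through cerebellum libraries only. For miR-6962-3p and miR-6926-3p it was through hippocampus libraries only. Each had to be high in that tissue to be tested, so its call supports nothing by itself.

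Marker miRNAs of cell types also differed between the tissues. Of all tested miRNAs, 32.4% were lower and 37.5% higher in wild-type hippocampus, and 33.2% and 38.9% in CyrKO hippocampus. Of the 3 neuronal miRNAs, 2 were lower in hippocampus in both genotypes, with medians of −0.70 in wild type and −0.76 in CyrKO. All 3 erythroid miRNAs in the tables were lower in hippocampus in both genotypes, with median log2 differences of −3.19 in wild type and −3.48 in CyrKO. Of 8 choroid plexus miRNAs, 4 were higher in wild-type and 5 in CyrKO hippocampus, with summed levels of 3700 to 17151 CPM there and 7529 to 11651 CPM in cerebellum. The part of these marker miRNAs in the tissue differences, including that of miR-7080-3p, was not tested.

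Among established mirtrons outside the number range, miR-877, miR-1224, miR-1981 and miR-702, 7 of 8 strands were tested and 4 were higher in wild-type hippocampus (all tested miRNAs, 37.5%), none lower (32.4%). miR-1224-5p rose by 1.60 (SE 0.13), miR-1981-5p by 1.39 (SE 0.24), miR-1981-3p by 0.82 (SE 0.13) and miR-877-5p by 0.33 (SE 0.14). In CyrKO hippocampus 3 of the 7 tested strands were higher (all tested miRNAs, 38.9%) and 0 lower (33.2%). All 4 hairpins fill an intron by the rule used above. Over all 58 strands outside the range that come from hairpins at intron ends, 34 were tested. Of these, 13 were higher in wild-type hippocampus (all tested miRNAs, 37.5%) and 4 lower (32.4%), with a median of 0.35 (all tested, 0.03). In CyrKO hippocampus 12 of the 34 were higher (38.9%) and 6 lower (33.2%), with a median of 0.44 (all tested, 0.10). Over these 34 the higher counts are thus near the shares over all tested miRNAs.

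Loss of Cyrano left no called difference in these strands. In cerebellum 0 of 49 tested strands passed the threshold (all tested miRNAs, 0.898%), and in hippocampus 0 of 54 (0.57%), by edgeR, by DESeq2 and in the authors' deposited table. At an unadjusted p under 0.05 edgeR had 0 strands in cerebellum (all tested miRNAs, 2.40%) and 1 in hippocampus (3.85%). Log2 changes lay between −0.62 and 0.74 in cerebellum and between −0.68 and 0.66 in hippocampus, with medians of 0.03 and −0.05. The strand at the unadjusted threshold was miR-7066-3p, whose 3 CyrKO hippocampus libraries (2.23, 2.38 and 2.51 CPM) were all below the 3 wild-type ones (3.38, 3.48 and 4.42 CPM), a lack of overlap that 9.12% of all tested miRNAs had. The strand miR-7080-3p, nearly absent from cerebellum, had 32.1 ± 2.08 CPM in wild-type and 32.8 ± 0.40 CPM in CyrKO hippocampus (SD, n = 3). The difference of the Cyrano effect between the tissues passed the threshold in 0 of 68 strands (all tested miRNAs, 0.402%; 3 at an unadjusted p under 0.05, against 4.69% of all; 0 by DESeq2).

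In the Cdr1as miR-671 site mutant 1 of 50 tested strands was called (all tested miRNAs, 2.26%), and it was higher (0.752%). This was miR-7052-3p, from an intron of Josd2, a deubiquitinase gene. It too had been singled out from earlier results of these libraries, so its p-values describe them and are not independent evidence. It had 3.73, 3.52 and 4.68 CPM in wild-type cerebellum (42, 43 and 47 reads) and 11.3, 9.07 and 6.82 CPM in the mutant (109, 78 and 72 reads). The groups did not overlap, as for 25% of all tested miRNAs, and libraries 1 and 2 of the mutant were the highest of all 18. The log2 change was 1.15 (SE 0.22, edgeR adjusted p = 0.0276; DESeq2 adjusted p = 0.00281). The deposited table of the authors gives a log2 change of 1.16 (SE 0.28) with no adjusted p. Libraries 1 and 2 are also those with the lowest erythroid miRNAs, 783 and 603 CPM against 16205 CPM in library 3 and 6326 to 32949 CPM in wild type. Adding the erythroid level to a fit of the 12 cerebellum libraries gave a log2 change of 0.87 (adjusted p = 0.37), and leaving out both libraries gave 0.84 (adjusted p = 0.521), in which library 3 is assumed to vary like the other groups. The call was also lost without wild-type library 1 or 3 (adjusted p = 0.25 and 0.0887) or without mutant library 1 or 2 (0.225 and 0.204). Over 14 alternatives the log2 change stayed between 0.84 and 1.29, and the adjusted p ran from 2.56e-06 to 0.521, past the threshold in 8.

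**Figure D5:**
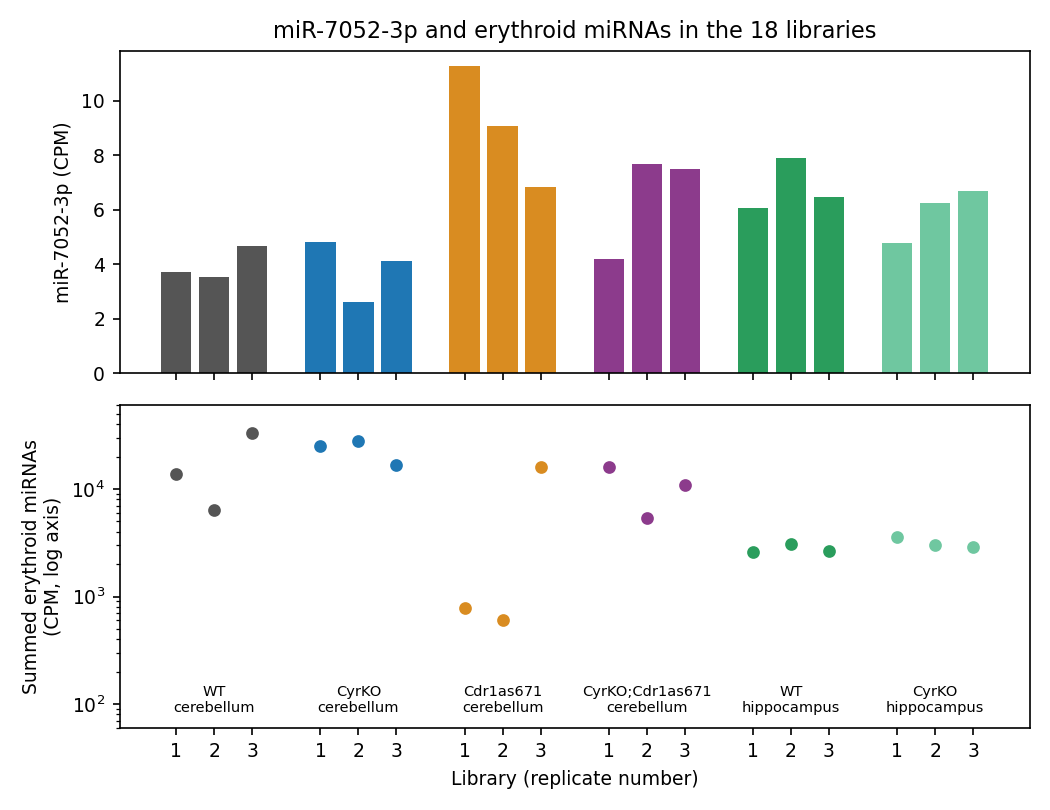
miR-7052-3p (upper panel, bars, CPM) and the summed erythroid miRNAs (lower panel, points, CPM on a log axis) in each of the 18 libraries, coloured by group. The 3 Cdr1as671 libraries (6.82 to 11.3 CPM) are above the 3 wild-type cerebellum libraries (3.52 to 4.68 CPM), and Cdr1as671 libraries 1 and 2 have the lowest erythroid sums of all.

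With both lesions miR-7052-3p had 4.17, 7.66 and 7.49 CPM, which overlapped wild type. Its log2 change against wild type was 0.78 (SE 0.25, adjusted p = 0.142) and against CyrKO 0.81 (SE 0.27, adjusted p = 0.128). In CyrKO alone it had 4.81, 2.61 and 4.11 CPM, and in hippocampus 6.05, 7.89 and 6.47 CPM in wild type and 4.77, 6.24 and 6.67 CPM in CyrKO. Double-mutant library 1 lay at the wild-type level and libraries 2 and 3 within the range of hippocampus.

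The other strands with the lowest p against wild type were miR-6952-3p, at 2.69, 2.56 and 1.51 CPM in Cdr1as671 against 0.799, 0.819 and 1.29 (log2 1.17, SE 0.33, adjusted p = 0.102), and miR-6937-3p, at 1.24, 1.16 and 1.33 CPM against 0.621, 0.328 and 0.896 (log2 1.00, SE 0.41, adjusted p = 0.188). Neither strand overlapped wild type, on 4 to 26 reads per library. Of the 50 tested strands 9 did not overlap wild type, against 25% of all tested miRNAs. In all, 6 of 50 strands reached an unadjusted p under 0.05 (12%), against 20.6% of all tested miRNAs, and 33 of 50 log2 changes were positive (66%), against 48.3% of all tested miRNAs. Of 7 tested strands of established mirtrons outside the range, 1 was called higher (all tested miRNAs, 0.752%) and 0 lower. It was miR-1224-5p (log2 0.60, SE 0.14, edgeR adjusted p = 0.0498), just under the threshold of 0.05. The same mutant libraries were used, including those low in erythroid miRNAs.

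The double mutant had 0 called strands of 47 against wild type (all tested miRNAs, 2.57%, with 1.96% higher), and 1 at an unadjusted p under 0.05, against 19.2% of all. It had 0 of 56 against CyrKO (2.33%, from 1.02% higher and 1.31% lower; 5 at an unadjusted p under 0.05, against 20.2% of all) and 0 of 56 against Cdr1as671 (0.727%; 2 at an unadjusted p under 0.05, against 8.58% of all). DESeq2 called 0 in each, but gave an adjusted p to only 6 of the 195 strands against wild type and to 117 against CyrKO. For the interaction of the 2 lesions 0 of 56 passed (all tested miRNAs, 0.145%; 3 at an unadjusted p under 0.05, against 3.92% of all; 0 by DESeq2), and the lowest p was that of miR-6937-3p (log2 −1.75, SE 0.58, adjusted p = 0.72). In the double mutant miR-6937-3p had 0.759, 0.291 and 0.68 CPM, on 17 reads over the group. These values were near wild type and below all 3 Cdr1as671 libraries. Double mutant and Cdr1as671 did not overlap in 17.2% of all tested miRNAs. The comparisons of the mutants with wild-type cerebellum share the same 3 wild-type libraries. The summed level of the 195 strands was 212 ± 29.3 CPM in Cdr1as671 and 176 ± 8.15 CPM in the double mutant (SD, n = 3), beside 184 ± 6.58 CPM in wild-type cerebellum.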

How the data were processed

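Columns were matched to libraries through their titles. Trizol RNA, 5 ug per library, was size-selected for 18 to 32 nt, per the labels' protocols. DESeq2 1.10 and cutadapt (version not stated) are listed in the submitters' processing notes. For read assignment, miRNA annotation and genome build the entry is: not given in the sources used here. Deposited count columns hold whole reads of each miRNA. The deposited normalised columns, read as signal, equal the counts over a size factor per library. The deposited log2 fold changes, their standard errors, the test statistic (a score) and the p-value columns are the authors' own, per the file headers.

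Tests used edgeR 4.0.16 under R 4.3.3 (filterByExpr with a minimum count of 10 and total of 15, TMM, robust quasi-likelihood F-test, Benjamini-Hochberg over all tested miRNAs, threshold 0.05). Mutants were compared with wild type in fits of 6 libraries, other contrasts in fits of 12. The tests were checked on simulated counts. DESeq2 1.42.0, RLE and library-total scaling, other filters, a replicate block, an erythroid covariate and leaving out each library were alternatives. CPM uses library totals, and intervals cover counting error only. Hairpins were placed on GENCODE M21 introns (GRCm38) from RefSeq positions; 176 strands have a RefSeq sequence. Same-numbered libraries deviated together between wild-type and CyrKO cerebellum (r = 0.57, 0.39 and 0.17 over 441 miRNAs). They also did between wild-type and double-mutant cerebellum (0.68, 0.45 and 0.54), but not throughout between CyrKO and double-mutant cerebellum (0.36, −0.13 and 0.31). Whether the numbers pair mice is therefore open, and the main tests took libraries as unpaired. With the replicate block, an alternative, CyrKO and double-mutant cerebellum against wild type also had 0 called strands. Strands were named when past the threshold in any comparison, among the 12 highest, among the 3 lowest p of a comparison, or nearest the minimum of 20 reads, and values in every library are printed only for those the results turn on. The number range, its minimum and the lists were chosen with earlier results of these data known.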

Additional observations from a re-analysis of the deposited data

How the results depend on the processing

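The counts of tissue calls stayed within 1.5 times under DESeq2, the block and the loss of single libraries, although single strands were lost. Leaving out 1 library at a time gave 27 to 34 called strands in wild type and 33 to 40 in CyrKO, DESeq2 gave 32 and 40, and the replicate block gave 31 and 39. A mean of at least 10 CPM left 5 strands to test, of which 4 and 3 were called, and 17 and 21 strands were called in 1 direction under TMM, RLE and library totals alike (an alternative chosen after seeing the data). With library totals the sign turned for miR-6958-3p (0.045 in wild type, 0.18 in CyrKO), miR-6971-3p in wild type (0.024) and miR-6953-3p in CyrKO (0.013), none of them then past the threshold; this follows from the shift between the scalings. For Cdr1as671 against wild type, with 1 strand called, the count was 2 with no filter on low counts, 2 with the replicate block, 0 at a mean of at least 10 CPM, 0 in the authors' deposited table (where 1 of the 195 strands has an adjusted p), 0 with the erythroid covariate, 0 without the 2 libraries low in erythroid miRNAs, and 0 to 3 on leaving out 1 library, with 3 without mutant library 3. For the double mutant, with 0 called, no filter gave 2 against wild type and 1 against CyrKO, and leaving out 1 library gave 0 to 1 in each, the 1 without double-mutant library 1; the cause was not tested. Apart from wild-type cerebellum with CyrKO or double-mutant cerebellum, in no pair of groups did all same-numbered libraries deviate together. Over all 45 pairs of libraries r ran from −0.69 to 0.70, and 20 were over 0.1. The TMM-scaled summed level was 213 CPM in CyrKO cerebellum and 240 CPM in CyrKO hippocampus. With 0.0653 to 0.116 CPM per read, the 127 strands that did not pass the filter in the tissue comparisons rest on few reads each.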
